A study of Mus musculus with 6 samples.

Results

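Cell cycle and mitosis genes were examined in mouse KP cells with and without an induced hairpin RNA against Npm1, the gene of the nucleolar protein nucleophosmin. The genes were a list of 49 cyclins, cyclin-dependent kinases and their regulators, E2F factors, and genes of the spindle, kinetochore, centrosome and cytokinesis. They were taken by symbol from 48526 gene identifiers in the count tables. All 49 were among the 14531 genes that passed the filter on low counts. The E2F factors, Mybl2 and the genes of S phase entry, 10 in all, were counted as G1/S genes and the other 39 as G2/M genes. The cells carried a pLKO.1-Tet on vector with hairpin shNpm1-3, shNpm1-4 or shNpm1-5 and were kept under puromycin until 3 stable lines were obtained, called here line 3, line 4 and line 5. Each line gave 1 library of total RNA with 100 ng/ml doxycycline, the antibiotic that switches the hairpin on, and 1 without it, 6 libraries in all. The 3 libraries with doxycycline form the knockdown group and the 3 without it the control group, and all 6 come from cells that carry a hairpin vector. The lines stand in for replicates, so the p-values for doxycycline measure the spread between lines with different hairpins. Doxycycline without a hairpin was not analysed here, and any batch that runs with the treatment and the treatment itself cannot be told apart.

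Cells divide in an ordered cycle. Late in G1 the E2F factors, released from the retinoblastoma family of pocket proteins, switch on genes for DNA synthesis and the E cyclins that activate Cdk2. The DREAM and B-Myb complexes and Foxm1 govern a later wave of genes, through promoter elements called CHR (cell cycle genes homology region). Many promoters of that wave also hold CCAAT boxes. Cyclin B with Cdk1 then drives the cell into mitosis. The anaphase promoting complex ends mitosis by marking cyclin B and securin for destruction. In bulk libraries such as these, fewer cells in a stage of the cycle and less RNA per cell cannot be told apart.

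The known promoter elements of the G1/S and G2/M classes were looked for in sequence, since the values are given for these classes apart. Promoter windows of 250 bases before to 50 bases after the start site, from RefSeq on GRCm38.p6, were found for 40 of the 49 genes, 43 windows in all. Both strands were searched for the CHR letters TTTGAA and for the CCAAT box. The E2F element was searched as TTCCCGC, in the variant form TTGGCGC, in a further form TTCGCGC, and also as TTGCCGC. The CHR letters were in 24 of 33 G2/M windows (72.7%) and in 2 of 10 G1/S windows (20%), against 12.2% of the windows of all genes tested and 17.9% of all promoters. CCAAT was in 78.8% of G2/M and 60% of G1/S windows, against 37.8% for genes tested and 37.4% for all promoters. An E2F match was in 5 G2/M windows (15.2%) and 6 G1/S windows (60%), against 16% for genes tested and 9.57% for all promoters. Both CHR and CCAAT letters were present in 63.6% of G2/M and 20% of G1/S windows, against 4.97% for genes tested and 6.95% for all promoters. A match is a description of the letters in the window, not a measured binding site. The windows of E2f8 and Plk1, the G1/S and the G2/M gene with the smallest p for line 3, and of Ccnb1 are given 5′ to 3′ on the strand of the gene, with the matched letters in capitals.
E2f8, chr7:48881547-48881846, minus strand: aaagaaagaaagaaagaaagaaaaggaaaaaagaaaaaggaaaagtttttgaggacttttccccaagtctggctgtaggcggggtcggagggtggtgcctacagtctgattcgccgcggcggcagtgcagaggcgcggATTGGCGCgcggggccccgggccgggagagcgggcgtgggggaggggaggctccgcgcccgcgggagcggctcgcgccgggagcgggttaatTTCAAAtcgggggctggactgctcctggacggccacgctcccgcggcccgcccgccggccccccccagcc
Plk1, chr7:122159185-122159484, plus strand: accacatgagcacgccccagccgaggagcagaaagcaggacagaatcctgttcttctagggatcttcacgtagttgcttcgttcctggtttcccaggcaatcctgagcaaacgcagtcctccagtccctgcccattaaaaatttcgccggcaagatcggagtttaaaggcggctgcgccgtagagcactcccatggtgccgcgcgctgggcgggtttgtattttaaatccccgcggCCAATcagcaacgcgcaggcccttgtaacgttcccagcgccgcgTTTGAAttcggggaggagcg
Ccnb1, chr13:100786437-100786736, minus strand: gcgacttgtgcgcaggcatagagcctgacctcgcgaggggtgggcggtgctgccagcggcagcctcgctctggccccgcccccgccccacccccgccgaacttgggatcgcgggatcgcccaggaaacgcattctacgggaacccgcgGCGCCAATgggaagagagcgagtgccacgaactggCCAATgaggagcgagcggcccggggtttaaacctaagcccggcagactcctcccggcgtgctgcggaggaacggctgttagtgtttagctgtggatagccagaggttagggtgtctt
In E2f8 the first capitals join a CCAAT box on the other strand and the E2F match TTGGCGC, which overlap, and the second are the CHR letters read from the other strand. Plk1 has a CCAAT box and then, after the start site, the CHR letters, with no E2F match. Ccnb1 has an E2F match that overlaps its first CCAAT box, a second CCAAT box, and no CHR letters in this form.

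The libraries held 24391198 to 27341036 counts in genes. Npm1 was at 67.8, 245 and 399.7 CPM in lines 3, 4 and 5 with doxycycline, against 2002, 1851 and 1924 CPM without it (log2 fold change -3.02, SE 0.49, adjusted p = 0.011 in edgeR), so that 3.39%, 13.2% and 20.8% remained. A 2-sided exact permutation test of its 6 values gave p = 0.1, the smallest that 3 libraries against 3 allow. Every library with doxycycline was below every library without it, and line 3 had the least Npm1 left. Epithelial markers (6 genes) summed to 8898 to 10606 CPM with doxycycline and 10121 to 12107 CPM without it, and the labels describe KP cells no further. Of the 6, 0 rose and 1 fell with doxycycline, Cldn4, a claudin of tight junctions, at 10.99, 8.79 and 18.3 CPM in lines 3, 4 and 5 with doxycycline, against 35.001, 27.9 and 26.2 CPM without it (log2 fold change -1.23, SE 0.25, adjusted p = 0.0325 in edgeR). Markers of other cells moved with the treatment. The 8 macrophage markers summed to 148 to 366 CPM with doxycycline and 21.3 to 24.04 CPM without it, and 7 of them rose. The 6 T lymphocyte markers, all of which fell, summed to 0.0661 to 0.137 CPM with doxycycline, with 2 at 0 in all 3 of those libraries, and to 6.22 to 9.48 CPM without it. Of all genes tested, 0.963% were called higher with doxycycline and 1.32% lower (edgeR, adjusted p under 0.05). The part of the macrophage and T lymphocyte markers in the results for doxycycline was not tested. Summed levels of 3 B lymphocyte, 3 endothelial and 4 fibroblast markers stayed at or under 6.41 CPM in every library.

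By the median ratio, the cell cycle genes were a little higher with doxycycline in lines 4 and 5 and not in line 3. Line 3 had less of almost all of them whether or not doxycycline was added. In edgeR with all 6 libraries and the filter on low counts, no gene passed the test of either difference between the lines. Summed over the 49 genes the level was 3029, 4612 and 5293 CPM in lines 3, 4 and 5 with doxycycline, against 2978, 3733 and 3904 CPM without it. With doxycycline, 46 of 49 genes had a log2 fold change above 0, against 50.4% of all genes tested, with a median of 0.23 against 0.0031 for all genes. None of the 49 was called higher or lower (edgeR, quasi-likelihood F test, p adjusted by Benjamini-Hochberg, threshold 0.05), while 140 of all genes tested were called higher (0.963%) and 192 lower (1.32%). At an unadjusted p under 0.05, 7 were higher and 0 lower, and the shares of all genes at that threshold were 8.33% and 7.96%. With DESeq2, 1 was called higher (Mad2l1; 2.26% of all genes), and with limma-voom none. In 2 genes, Ccne1 and Mad2l1, all 3 libraries with doxycycline were above all 3 without it, a share of 4.08% where all genes had 11.3%.

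**Figure D1:**
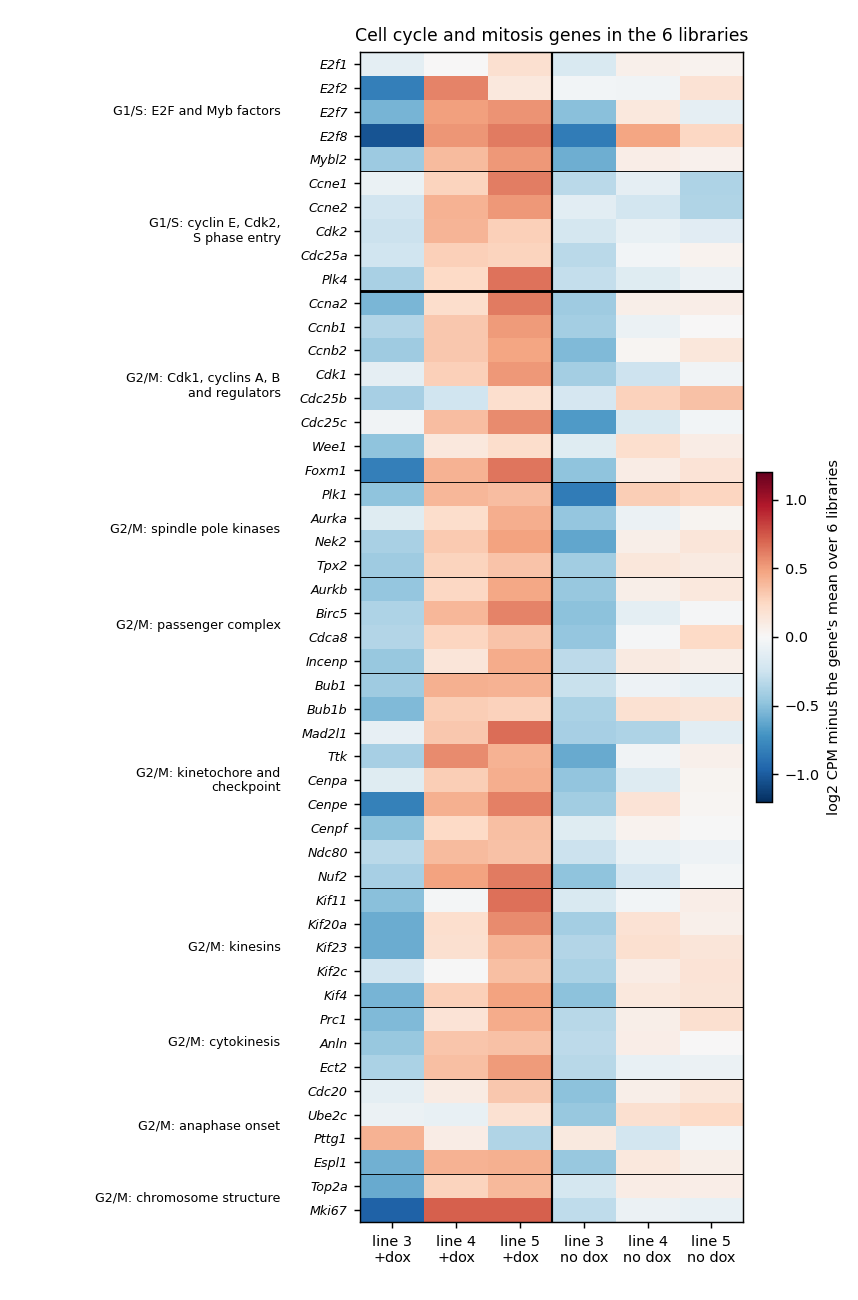
Level of each gene in each library as log2 CPM minus the mean of that gene over the 6 libraries, with libraries of lines 3, 4 and 5 with doxycycline at the left and without it at the right and genes grouped by role from top to bottom. Both line 3 columns are blue for most genes, and the columns of lines 4 and 5 with doxycycline are the reddest.

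The ratio was then taken within each line. In line 3 the median log2 ratio with over without doxycycline was -0.05 and 21 of 49 genes were above 0. In line 4 it was 0.28 with 43 of 49 above 0, and in line 5 0.37 with 45 of 49. Over all genes tested the medians were 0.001, -0.0078 and -0.0043 in lines 3, 4 and 5. For the G1/S genes the medians were -0.05, 0.37 and 0.44, and for the G2/M genes -0.05, 0.25 and 0.36. The difference between the classes was not tested. The roles were not alike. For the 4 spindle pole genes the medians were 0.28, 0.18 and 0.28 in lines 3, 4 and 5. Genes of anaphase onset, also 4, had 0.34, 0.16 and 0.07, and the 4 chromosomal passenger genes 0.05, 0.22 and 0.35. In each other role the line 3 median was below 0. A ratio below 1 in line 3 together with ratios above 1 in lines 4 and 5 was seen in 24 of 49 genes, or 49%, and in 15% of all genes. Ratios above 1 in all 3 lines were seen in 17 genes, or 34.7%, and in 19.1% of all genes. The genes share 6 libraries and are not separate observations.

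**Figure D2:**
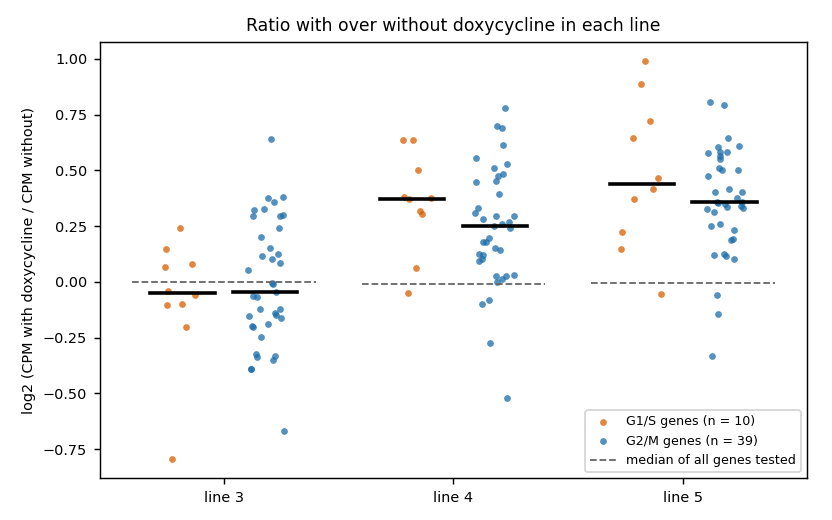
Log2 ratio of CPM with doxycycline over CPM without it in each line, 1 point per gene, with 10 G1/S and 39 G2/M genes apart, black bars at the medians and a dashed line at the median of all genes tested. The points of line 3 lie around 0, and most points of lines 4 and 5 lie above it.

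The calls for doxycycline changed when line 3 was left out. Without the treated library of line 3, 16 of the 49 genes were called higher and none lower, against 4.57% of all genes called higher. They were Ccne1, Ccne2, Cdk2, Plk4, Ccnb1, Cdk1, Cdc25c, Birc5, Bub1, Mad2l1, Ttk, Cenpa, Ndc80, Nuf2, Ect2 and Mki67, of which the first 4 are G1/S genes. Without both libraries of line 3, 7 were called higher, against 1.8% of all genes. These were Ccne2, Birc5, Bub1, Mad2l1, Nuf2, Ect2 and Mki67, and Mki67 had the smallest p (log2 fold change 0.80, SE 0.12, adjusted p = 0.0213 in edgeR). With all 6 libraries the median of the 49 log2 fold changes was 0.23, and without the treated library of line 3 it was 0.49. That library also stood apart in other measures. Its TMM scaling factor was 0.896, against 0.971 to 1.11 in the others, and its 100 most abundant genes took 32.1% of its counts in genes, against 24.45% to 29.5%. Alignments that were not unique made up 37.8% of all counts of that library, rows without a gene included, against 31.4% to 34.6%. The part of these properties in the result was not tested.

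Line 3 was then compared with the mean of lines 4 and 5 over both conditions, a contrast chosen with earlier results of these data known. Of the 49 genes, 48 were lower in line 3, against 49.6% of all genes, with a median log2 difference of -0.58 (0.671-fold), against 0.0025 for all genes. The G1/S median was -0.46 and the G2/M median -0.60. Published phase lists hold 2 of the 49 as G1/S genes and 25 as G2/M genes. By those classes the order turned, with medians of -0.83 and -0.57, and the difference between classes was not tested. No gene of the whole table was called in this comparison by edgeR (0% of 14531 genes, higher or lower) or by limma-voom, and adjusted p of the 49 lay between 0.591 and 0.715. DESeq2 called 5 genes higher and 1 lower, none of the 49 (0.388% and 0.0775%), among 1290 genes that it gave an adjusted p, which include only 7 of the 49. At an unadjusted p under 0.05 in edgeR, 43 of the 49 were lower and 0 higher, where 3.66% and 4.56% of all genes were. Both line 3 libraries lay below all 4 libraries of lines 4 and 5 in 39 genes, a share of 79.6% (8.95% of all genes). They lay above all 4 in 1 gene, Pttg1 (8.68% of all genes). The line number and the hairpin cannot be told apart, since each line carries its own hairpin, and each line had only 2 libraries, 1 per condition. Those 2 libraries served as the replicates of the line. The p-values of this comparison therefore measure how the effect of doxycycline varied between lines, not the spread between cultures.

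The lower level of line 3 was present in both conditions. With doxycycline the median log2 difference of line 3 from lines 4 and 5 was -0.82 and 48 of 49 genes were lower, and without it the median was -0.44 with 47 of 49 lower. Of the classes, the G2/M genes had medians of -0.82 with doxycycline and -0.50 without it, and the G1/S genes -0.77 with it and -0.21 without it. By the published lists the medians with and without doxycycline were -0.79 and -0.44 for G2/M genes. For the 2 G1/S genes of those lists they were -1.16 and -0.52. Over all genes tested these medians were 0.001 and 0.0007. Without the treated library of line 3 the median over the 49 genes was -0.45 and 0 of the 49 were called. Without the untreated library of line 3, 32 of the 49 were called lower (2.88% of all genes), and without the untreated library of line 5, 9 were (0.268% of all genes). None was called without the treated library of line 4, that of line 5 or the untreated library of line 4. Each of these fits with a library left out had 1 residual degree of freedom. In the fits with 1 library of line 3, that library was assumed to vary like those of lines 4 and 5. Without its untreated library, line 3 was the treated library alone, so the calls of that fit do not describe both conditions. With no filter on low counts, 21 of the 49 were called lower, against 0.359% of all genes. Scaling by library totals alone moved the median of all genes to -0.15 and that of the 49 genes to -0.72.

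**Figure D3:**
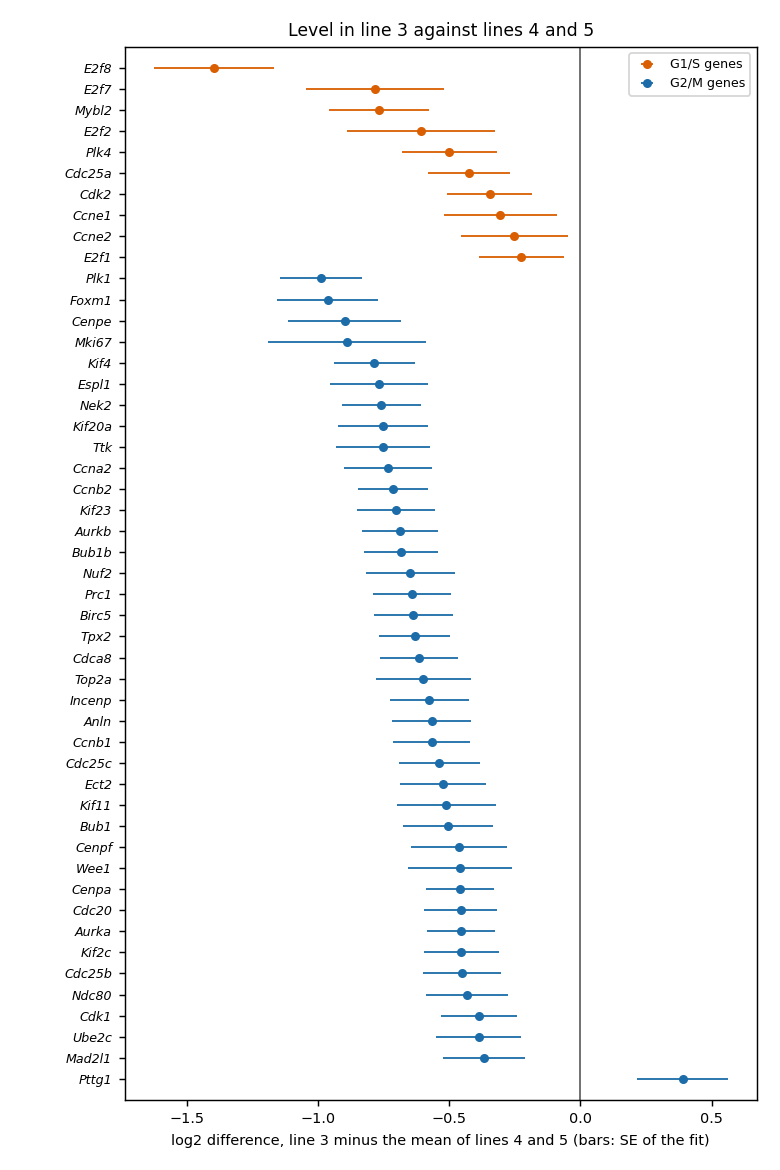
Log2 difference between line 3 and the mean of lines 4 and 5 for each gene, from the fit with doxycycline and line as terms, with bars of 1 SE; G1/S genes are at the top and G2/M genes below. E2f8 lies farthest to the left at -1.40, and Pttg1 is alone to the right of 0 at 0.39.

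Among the E2F factors and B-Myb, 5 of the 5 had a log2 fold change above 0 with doxycycline (median 0.15) and 5 were lower in line 3 (median -0.77). E2f1 and E2f2 encode activating E2F proteins, E2f7 and E2f8 the repressing ones that limit E2F target genes later in S phase, and Mybl2 encodes B-Myb, which joins the MuvB complex at G2/M promoters. E2f8 (ENSMUSG00000046179; mm10 chromosome 7, 48866429 to 48881596, minus strand) was at 3.48, 10.3 and 10.99 CPM in lines 3, 4 and 5 with doxycycline, against 4.00, 9.91 and 8.49 CPM without it. Both libraries of line 3 were under 5 CPM and the other 4 above 8 CPM, and the difference did not pass (log2 difference of line 3 from lines 4 and 5 -1.40, SE 0.23, adjusted p = 0.591 in edgeR). Its paralog E2f7, at 3.25, 6.74 and 6.97 CPM in lines 3, 4 and 5 with doxycycline, against 3.39, 5.21 and 4.45 CPM without it, was also lowest in line 3 in both conditions. Mybl2 had 7.46, 13.2 and 14.5 CPM in lines 3, 4 and 5 with doxycycline, against 6.74, 10.7 and 10.5 CPM without it, with the same 2 libraries lowest. Neither passed for doxycycline, Mybl2 with a log2 fold change 0.34, SE 0.27, adjusted p = 0.592 in edgeR and E2f7 with a log2 fold change 0.38, SE 0.31, adjusted p = 0.594 in edgeR. Of the exon bases of E2f8, 11.2% overlap Gm2788 on the other strand, and since the strand setting of the counting is not given in the sources used here, reads of such pairs cannot be told apart. E2f1 was at 14.7, 16.1 and 18.3 CPM in lines 3, 4 and 5 with doxycycline, against 14.1, 16.7 and 16.5 CPM without it. Its 6 libraries spanned a narrow range, with line 3 lowest in each condition. E2f2 was at 6.23, 16.6 and 11.98 CPM in lines 3, 4 and 5 with doxycycline, against 10.8, 10.7 and 12.4 CPM without it, lowest in treated line 3 and highest in treated line 4.

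The genes of S phase entry had ratios above 1 in both lines 4 and 5. Ccne1 and Ccne2 encode the E cyclins that activate Cdk2, Cdc25a a phosphatase that removes inhibitory phosphates from Cdk2, and Plk4 the kinase that starts centriole duplication. Of these and Cdk2, 5 of the 5 had a log2 fold change above 0 with doxycycline (median 0.39). All 5 were lower in line 3 over both conditions together (median -0.35). The median difference of line 3 was -0.60 with doxycycline and -0.10 without it, where 4 of the 5 were lower. The exception was Ccne2, which was highest in line 3 without doxycycline. Ccne2 (ENSMUSG00000028212; mm10 chromosome 4, 11191351 to 11204779, plus strand) was at 36.9, 57.7 and 62.2 CPM in lines 3, 4 and 5 with doxycycline, against 39.5, 37.1 and 33.6 CPM without it. The treated libraries of lines 4 and 5 stood above the 4 others, and the treated and untreated libraries of line 3 were close to each other. Over the 3 lines its fold change was not called (log2 fold change 0.51, SE 0.19, adjusted p = 0.21 in edgeR), and 17.4% of its exon bases overlap Ints8 on the other strand. Ccne1 was at 9.80, 12.5 and 15.8 CPM in lines 3, 4 and 5 with doxycycline, against 8.28, 9.60 and 7.99 CPM without it. Each treated library was above each untreated one (log2 fold change 0.56, SE 0.20, adjusted p = 0.205 in edgeR). Plk4 was at 54.9, 84.8 and 113 CPM in lines 3, 4 and 5 with doxycycline, against 58.95, 65.2 and 68.8 CPM without it, lowest in the line 3 libraries, with the highest value in treated line 5. Cdk2 itself had 30.03, 47.7 and 43.6 CPM in lines 3, 4 and 5 with doxycycline, against 30.9, 33.7 and 32.7 CPM without it. Here too treated lines 4 and 5 were the highest libraries.

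**Figure D4:**
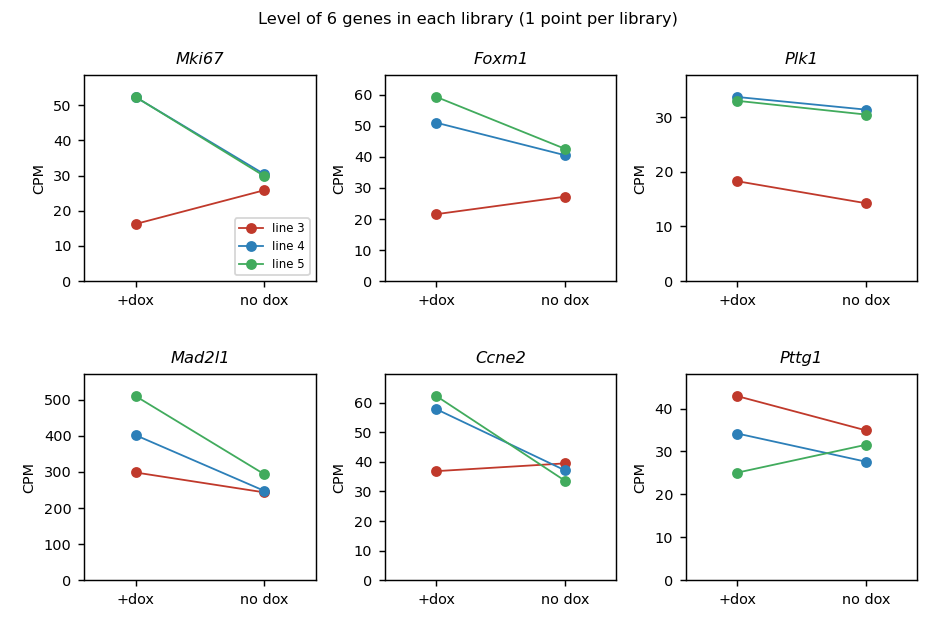
CPM of 6 genes in each library, with doxycycline at the left and without it at the right of each panel and 1 coloured line per stable line. Mki67, Foxm1 and Plk1 are lowest in line 3, Mad2l1 and Ccne2 are highest in treated lines 4 and 5, and Pttg1 is highest in line 3.

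Of the Cdk1 group, 6 of the 8 had a log2 fold change above 0 with doxycycline (median 0.26) and 8 were lower in line 3 (median -0.55). Cdk1 is the kinase of mitotic entry, Ccna2, Ccnb1 and Ccnb2 its cyclins, Cdc25b and Cdc25c the phosphatases that activate it, Wee1 the kinase that holds it back, and Foxm1 a transcription factor of G2/M genes. Per kilobase of the longest annotated transcript, Cdk1 had the highest level of the 49 genes, 118 CPM per kilobase with doxycycline and 84.8 without it. Its levels were 401, 527 and 624 CPM in lines 3, 4 and 5 with doxycycline, against 326, 365 and 422 CPM without it. The untreated line 5 library overlapped the treated line 3 library, and the fold change did not pass (log2 fold change 0.48, SE 0.18, adjusted p = 0.222 in edgeR). Cdc25c was at 18.4, 24.5 and 28.1 CPM in lines 3, 4 and 5 with doxycycline, against 11.8, 16.7 and 18.5 CPM without it (log2 fold change 0.60, SE 0.21, adjusted p = 0.184 in edgeR), above its own untreated library in each line, with ratios of 1.56, 1.47 and 1.52. Of its exon bases 12.7% overlap Gm3550 on the other strand. Ccnb2 was at 75.8, 127 and 141 CPM in lines 3, 4 and 5 with doxycycline, against 70.6, 104 and 112 CPM without it, lowest in both line 3 libraries (log2 difference of line 3 from lines 4 and 5 -0.71, SE 0.13, adjusted p = 0.591 in edgeR). Ccnb1, whose promoter is shown above, had 107, 171 and 196 CPM in lines 3, 4 and 5 with doxycycline, against 103, 130.3 and 137 CPM without it. Foxm1 (ENSMUSG00000001517; mm10 chromosome 6, 128362967 to 128376146, plus strand) was at 21.6, 50.97 and 59.3 CPM in lines 3, 4 and 5 with doxycycline, against 27.2, 40.5 and 42.6 CPM without it. Treated line 3 was the lowest library and untreated line 3 the next, with lines 4 and 5 above both. Against this, Cdc25b and Wee1 were lower on average with doxycycline, with log2 fold changes of -0.28 and -0.07 that did not pass (edgeR adjusted p = 0.513 and 0.913).

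Among the spindle pole genes, 4 of the 4 had a log2 fold change above 0 with doxycycline (median 0.22) and 4 were lower in line 3 (median -0.70). Plk1 drives several steps of mitosis, Aurka and its activator Tpx2 build the spindle, and Nek2 separates the centrosomes. Plk1 (ENSMUSG00000030867; mm10 chromosome 7, 122159439 to 122169873, plus strand) was at 18.3, 33.7 and 32.96 CPM in lines 3, 4 and 5 with doxycycline, against 14.2, 31.4 and 30.4 CPM without it. Both line 3 libraries were under 20 CPM and the other 4 above 30 CPM (log2 difference of line 3 from lines 4 and 5 -0.99, SE 0.15, adjusted p = 0.591 in edgeR). Its ratios with over without doxycycline were 1.28, 1.07 and 1.08 in lines 3, 4 and 5, the largest in line 3. Nek2 had 17.6, 28.5 and 32.2 CPM in lines 3, 4 and 5 with doxycycline, against 14.9, 24.1 and 25.5 CPM without it. Aurka was at 87.03, 111 and 129.7 CPM in lines 3, 4 and 5 with doxycycline, against 69.7, 91.7 and 98.02 CPM without it. In both, line 3 was lowest within each condition. The chromosomal passenger complex, made of the kinase Aurkb and its partners Birc5 (survivin), Cdca8 (borealin) and Incenp, corrects the attachment of chromosomes to the spindle. Here 4 of the 4 had a log2 fold change above 0 with doxycycline (median 0.18) and 4 were lower in line 3 (median -0.63). Birc5 was at 71.3, 121 and 139 CPM in lines 3, 4 and 5 with doxycycline, against 65.4, 84.9 and 90.9 CPM without it (log2 fold change 0.46, SE 0.23, adjusted p = 0.353 in edgeR), with ratios of 1.09, 1.42 and 1.53 in the 3 lines. Aurkb was at 35.4, 58.3 and 67.4 CPM in lines 3, 4 and 5 with doxycycline, against 35.7, 51.5 and 53.5 CPM without it, with line 3 below the other 4 libraries (log2 difference of line 3 from lines 4 and 5 -0.69, SE 0.14, adjusted p = 0.591 in edgeR).

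The gene of the 49 with the smallest p for doxycycline was a checkpoint gene. Mad2l1, Bub1, Bub1b and Ttk encode proteins of the spindle checkpoint, Ndc80 and Nuf2 the outer kinetochore complex that grips microtubules, Cenpa the centromeric histone H3 variant, Cenpe a kinetochore motor, and Cenpf a large kinetochore protein. Of these, 9 of the 9 had a log2 fold change above 0 with doxycycline (median 0.32) and 9 were lower in line 3 (median -0.51). Mad2l1 (ENSMUSG00000029910; mm10 chromosome 6, 66535390 to 66547220, plus strand) was at 298, 402 and 509.8 CPM in lines 3, 4 and 5 with doxycycline, against 243, 248 and 294 CPM without it. Each treated library was above each untreated one, and the ratios were 1.23, 1.62 and 1.74 in lines 3, 4 and 5 (log2 fold change 0.62, SE 0.19, adjusted p = 0.138 in edgeR). DESeq2 called it (log2 fold change 0.63, SE 0.20, adjusted p = 0.0429 in DESeq2), and so did edgeR with no filter on low counts (log2 fold change 0.61, SE 0.16, adjusted p = 0.00794 in edgeR), a fit that called 3 of the 49 higher, with Cdc25c and Nuf2, against 1.59% of all genes. Nuf2 was at 35.2, 64.97 and 71.4 CPM in lines 3, 4 and 5 with doxycycline, against 33.2, 40.2 and 45.6 CPM without it (log2 fold change 0.53, SE 0.24, adjusted p = 0.301 in edgeR), with treated lines 4 and 5 the highest libraries. Bub1b was at 37.1, 66.1 and 65.1 CPM in lines 3, 4 and 5 with doxycycline, against 41.2, 60.8 and 59.9 CPM without it. There the 2 libraries of line 3 were the lowest. Cenpa was at 147, 199 and 221 CPM in lines 3, 4 and 5 with doxycycline, against 117, 146 and 167 CPM without it, above its own untreated library in each line.

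Of the mitotic kinesins, 5 of the 5 had a log2 fold change above 0 with doxycycline (median 0.17) and 5 were lower in line 3 (median -0.70), and none had ratios above 1 in all 3 lines. Kif11 pushes spindle poles apart, Kif4 acts on chromosome arms and the midzone, and Kif20a carries the passenger complex to the midzone. Kif2c takes microtubules apart, and Kif23 bundles those of the midzone. Kif11 was at 86.3, 121 and 193 CPM in lines 3, 4 and 5 with doxycycline, against 108, 119.8 and 129.6 CPM without it. Treated line 5 was the highest library and treated line 3 the lowest. Kif4 was at 21.3, 38.2 and 43.7 CPM in lines 3, 4 and 5 with doxycycline, against 22.2, 34.3 and 34.9 CPM without it (log2 difference of line 3 from lines 4 and 5 -0.79, SE 0.15, adjusted p = 0.591 in edgeR), with 15.1% of its exon bases shared with Pdzd11 on the other strand; for Kif20a and Cdc23 this share was 29.3%. At the midzone, where Prc1 crosslinks microtubules, Ect2 activates RhoA and Anln scaffolds the contractile ring, 3 of the 3 had a log2 fold change above 0 with doxycycline (median 0.19) and 3 were lower in line 3 (median -0.57). Ect2 was at 122, 203 and 226 CPM in lines 3, 4 and 5 with doxycycline, against 126, 148 and 151 CPM without it (log2 fold change 0.38, SE 0.21, adjusted p = 0.409 in edgeR). Anln had 125, 216 and 219 CPM in lines 3, 4 and 5 with doxycycline, against 138, 181 and 172 CPM without it. Prc1 was at 44.5, 71.98 and 87.4 CPM in lines 3, 4 and 5 with doxycycline, against 51.1, 67.5 and 73.5 CPM without it. In all 3 genes the ratio with over without doxycycline was below 1 in line 3 and above 1 in lines 4 and 5, and both line 3 libraries were below the other 4. Of the exon bases of Prc1, 11.1% overlap Rccd1 on the other strand.

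Among genes of anaphase onset, Pttg1 had the opposite order of lines. Cdc20 activates the anaphase promoting complex, Ube2c is its ubiquitin-conjugating enzyme, Pttg1 encodes securin, and Espl1 separase, the protease that securin inhibits. Of these, 3 of the 4 had a log2 fold change above 0 with doxycycline (median 0.15) and 3 were lower in line 3 (median -0.42). Pttg1 (ENSMUSG00000020415; mm10 chromosome 11, 43420250 to 43426251, minus strand) was at 42.9, 34.2 and 25.1 CPM in lines 3, 4 and 5 with doxycycline, against 34.9, 27.6 and 31.6 CPM without it. Both line 3 libraries were above the other 4 (log2 difference of line 3 from lines 4 and 5 0.39, SE 0.17, adjusted p = 0.612 in edgeR). Ube2c was at 106, 106 and 127 CPM in lines 3, 4 and 5 with doxycycline, against 81.8, 128 and 132 CPM without it, higher with than without doxycycline in line 3 and lower in lines 4 and 5. Its exon bases overlap Tnnc2 on the other strand by 22.8%. Espl1 had 9.25, 18.4 and 18.5 CPM in lines 3, 4 and 5 with doxycycline, against 10.05, 15.01 and 14.4 CPM without it, with line 3 lowest in both conditions. Cdc20 was at 82.1, 95.1 and 111 CPM in lines 3, 4 and 5 with doxycycline, against 63.2, 93.2 and 97.6 CPM without it, with untreated line 3 the lowest library.

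In both chromosome structure genes the ratio was below 1 in line 3 and above 1 in lines 4 and 5. Top2a encodes topoisomerase II alpha, which untangles sister chromatids, and Mki67 the Ki-67 protein that coats mitotic chromosomes and is used as a marker of dividing cells. Mki67 (ENSMUSG00000031004; mm10 chromosome 7, 135689784 to 135716361, minus strand) was at 16.3, 52.3 and 52.3 CPM in lines 3, 4 and 5 with doxycycline, against 25.8, 30.4 and 29.9 CPM without it. Treated line 3 was the lowest of the 6 libraries and treated lines 4 and 5 the highest, so that the ratios were 0.629, 1.72 and 1.75 in lines 3, 4 and 5. Top2a had 267, 486 and 531 CPM in lines 3, 4 and 5 with doxycycline, against 349.9, 430.0 and 427 CPM without it, again with treated line 3 the lowest and treated lines 4 and 5 the highest. The effect of doxycycline in line 3 minus that in lines 4 and 5 was fitted for all genes, with 2 residual degrees of freedom. No gene was called in either direction (edgeR, 0% of genes), though 41 of the 49 differences were below 0, against 49.8% of all genes, with a median of -0.38. At an unadjusted p under 0.05, 13 were lower and 1 higher, Ube2c, where 7.85% and 7.59% of all genes were. With library totals alone 28 of the 49 were lower at that threshold (14.8% of all genes), where the median moved to -0.59 for the 49 and -0.22 for all genes. With offsets for transcript length and GC content 5 were (5.97% of all genes), and in neither was any of the 49 higher. A ratio below 1 in line 3 and above 1 in lines 4 and 5, together with an unadjusted p under 0.05 for the difference, was found in 11 of the 49 and in 5.78% of all genes. Mki67 had the smallest p of the 49 (log2 difference -1.46, SE 0.21, adjusted p = 0.169 in edgeR), and DESeq2 called it (log2 difference -1.47, SE 0.32, adjusted p = 0.00244 in DESeq2), where 0.748% of the genes with an adjusted p were called lower. With no filter on low counts Mki67 was again the only gene of the 49 called, against 1.13% of all genes. Without the treated library of line 4 or that of line 5, 21 and 12 of the 49 were called lower, against 8.51% and 10.5% of all genes, in fits with 1 residual degree of freedom. In the second of these Ube2c was called higher (12% of all genes). Without the untreated library of line 4 or that of line 5 none of the 49 was called.

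Other genes of the same pathways were counted from lists. Of 40 further G1/S genes, 2 rose with doxycycline and 0 fell, where 0.963% of all genes tested were called higher and 1.32% lower. Of the 40, 38 had a log2 fold change above 0, against 50.4% of all genes, with a median of 0.36. Both called genes are genes of DNA replication. Prim1, the catalytic subunit of primase, was at 98.5, 134 and 137 CPM in lines 3, 4 and 5 with doxycycline, against 66.8, 68.9 and 72.8 CPM without it (log2 fold change 0.83, SE 0.15, adjusted p = 0.0169 in edgeR). Tipin, which stabilises replication forks with Timeless, was at 76.2, 93.2 and 119 CPM in lines 3, 4 and 5 with doxycycline, against 52.9, 51.6 and 56.5 CPM without it (log2 fold change 0.84, SE 0.16, adjusted p = 0.0265 in edgeR). In each, the 3 treated libraries lay above the 3 untreated ones, line 3 included. Of 27 further G2/M genes none passed, 22 were above 0, the median was 0.17, and Cks2, a Cdk1-binding subunit, had the smallest p (log2 fold change 0.44, SE 0.14, adjusted p = 0.142 in edgeR). Of 22 inner kinetochore genes 1 rose and 0 fell, beside 0.963% and 1.32% of all genes: Cenpk, which was at 21.6, 40.9 and 30.3 CPM in lines 3, 4 and 5 with doxycycline, against 14.1, 13.6 and 16.8 CPM without it (log2 fold change 1.06, SE 0.22, adjusted p = 0.0346 in edgeR). These 3 lists were also lower in line 3 than in lines 4 and 5, in 39 of 40 further G1/S genes (median log2 difference -0.43), 26 of 27 further G2/M genes (median -0.41) and 21 of 22 of the inner kinetochore (median -0.28), against 49.6% of all genes, and none of these genes passed.

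Among inhibitors of cyclin-dependent kinases 1 gene fell with doxycycline, and the difference of line 3 from lines 4 and 5 had a higher median with doxycycline than without it. Of 7 Cip/Kip and INK4 genes 1 fell with doxycycline (1.32% of all genes) and 0 rose. It was Cdkn2d, an INK4 inhibitor of Cdk4 and Cdk6, at 29.7, 22.2 and 18.6 CPM in lines 3, 4 and 5 with doxycycline, against 51.5, 56.6 and 58.9 CPM without it (log2 fold change -1.25, SE 0.17, adjusted p = 0.00469 in edgeR). In line 3, 6 of the 7 had a level above lines 4 and 5 over both conditions, against 50.4% of all genes, with a median log2 difference of 0.50, and none passed. The median was 0.94 in the libraries with doxycycline and 0.02 in those without it, with 1 and 2 of the 7 below 0. Of 19 D cyclin, Cdk4, Cdk6, pocket protein and other E2F and DP genes, 10 were above 0 with a median of 0.0038 and none passed; Ccnd1, a cyclin that activates Cdk4 and Cdk6, had the smallest p (log2 fold change -0.49, SE 0.16, adjusted p = 0.16 in edgeR) at 271, 325 and 322 CPM in lines 3, 4 and 5 with doxycycline, against 350.2, 495 and 445 CPM without it. None passed among 17 genes of the anaphase promoting complex (median 0.11), 19 of cohesin and condensin (median 0.05) and 12 of centrioles and centrosomes (median 0.15). The genes with the smallest p in these were Anapc10, a subunit of the complex (log2 fold change 0.34, SE 0.13, adjusted p = 0.242 in edgeR), Cdca5, the cohesion factor sororin (log2 fold change 0.35, SE 0.15, adjusted p = 0.294 in edgeR), and Tubg1, gamma-tubulin (log2 fold change 0.40, SE 0.15, adjusted p = 0.21 in edgeR). In line 3 the medians of these 3 lists were -0.04, -0.26 and -0.51, against -0.58 for the 49 genes.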

How the data were processed

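Total RNA of 6 cultures was sequenced, with group and line given by the labels. The authors deposited raw counts of reads per gene, 1 table per library. Per the submitters' processing notes the reads were processed with CASAVA, STAR, Picard and HTSeq on the build mm10, and DESeq2, bedtools and R 3.3.0 are also named; the strand setting and annotation release are among the details not given in any source used. Of all counts, 43.8% to 47.7% were in 5 summary rows without a gene and stayed out of library sizes and tests. Symbols, coordinates, lengths and overlaps came from the GENCODE annotation of the same build, which matched 48058 of 48526 identifiers, and all 240 genes of the lists.

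The test of counts was the quasi-likelihood F test of edgeR 4.0.16 (R 4.3.3) after filterByExpr and TMM scaling, with p adjusted by Benjamini-Hochberg over all genes tested and a threshold of 0.05, and CPM were computed with TMM-scaled library sizes. A floor of 3 counts is 0.110 to 0.123 CPM. Doxycycline was tested without a block, line 3 against lines 4 and 5 with doxycycline as a term, and the difference of the effects in a fit of line class, doxycycline and their product. Standard errors were derived from the fold change and F (fold change over root F, log2 scale). The procedures were tried on simulated counts, in which only a set of genes with known folds differed. The simulation for doxycycline held no differences between lines, and its outcome is not used here. Alternatives were RLE scaling, no filter, DESeq2 1.42.0, limma-voom (limma 3.58.1), offsets for length and GC content, the line as a replicate block, no doxycycline term, other phase classes, each library and each line left out, and, added after the data were seen, library totals without scaling. Same-numbered libraries come from the same stable line and are paired by it; across genes, the correlation of their deviations from the group mean was 0.0434, 0.0962 and 0.0274 in lines 3, 4 and 5, so the pairing rests on the lines.

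The 49 genes, the lists, the comparisons and the rule for named genes were chosen with earlier results of these data known. The rule took Npm1, in each role the 2 genes with the smallest p for doxycycline and the 1 with the smallest p for line 3, the gene with the highest level per length, and of each other list up to 3 genes that passed or else the 1 of smallest p; further genes were chosen after their values were seen.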

Additional observations from a re-analysis of the deposited data

Results flagged for a closer look

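In 11 of the 49 genes the ratio with over without doxycycline was below 1 in line 3 and above 1 in both lines 4 and 5, with an unadjusted p under 0.05 for the difference of the effects. This held for 22.4% of the 49 and 5.78% of all genes. The same ratios with an unadjusted p under 0.05 were found for 4 of the 49 (3.92% of all genes) with offsets for length and GC content, Cdk2, Foxm1, Incenp and Mki67, and for 21 (9.41% of all genes) with library totals. None passed after adjustment over all genes in edgeR with all 6 libraries and the filter on low counts. Line 3 has 1 library per condition. The difference, line 3 minus lines 4 and 5, is on the log2 scale.

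Mki67 had the largest of the 11 differences, -1.46 (edgeR adjusted p = 0.169), with ratios of 0.629, 1.72 and 1.75 in lines 3, 4 and 5. The others were Ccne2 at -0.86, Cdk2 at -0.50 and Plk4 at -0.67 among the G1/S genes. Among the G2/M genes Foxm1 had -0.74, Top2a -0.64 and Ect2 -0.57. The 4 kinetochore and checkpoint genes were Bub1 at -0.65, Cenpe at -0.81, Cenpf at -0.63 and Ndc80 at -0.51. Cenpe was at 12.7, 29.9 and 33.9 CPM in lines 3, 4 and 5 with doxycycline, against 16.7, 25.003 and 22.6 CPM without it. Bub1 was at 73.6, 132 and 132 CPM in lines 3, 4 and 5 with doxycycline, against 82.3, 94.6 and 93.1 CPM without it. In both the treated library of line 3 was the lowest and those of lines 4 and 5 the highest. The treated library of line 3 is the one with the lowest scaling factor and the least Npm1 left, and the part of these in the differences was not tested.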

How the results depend on the processing

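For doxycycline, with no filter on low counts 3 of the 49 genes (Cdc25c, Mad2l1 and Nuf2) and with DESeq2 1 were called higher; all genes called higher and lower were 430 and 622 with no filter and 329 and 391 with DESeq2. For line 3, 21 of the 49 were called lower with no filter, and all genes called higher and lower were 200 and 97 with no filter and 5 and 1 with DESeq2. For the difference of the effects, 1 gene of the 49 with no filter and 1 with DESeq2, Mki67 in each, were called lower, and all genes called higher and lower were 371 and 305 with no filter and 82 and 75 with DESeq2. The cause was not tested.

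When a library or a line was left out, the number of the 49 genes called higher with doxycycline was 0 to 16, all genes called higher 35 to 684 and lower 27 to 867. The genes above 0 numbered 30 to 48 of 49 and 22 to 38 of 39 G2/M genes, fewest without the treated library of line 5, and the median log2 fold change was 0.065 to 0.49 over all and 0.041 to 0.44 over the G2/M genes, highest without the treated library of line 3. For line 3 the genes of the 49 called lower were 0 to 32, all genes called higher 0 to 630 and lower 0 to 429. For the difference of the effects, 0 to 21 of the 49 were called lower and 0 to 1 higher, with 0 to 1568 of all genes lower and 0 to 1784 higher; this fit could not be made without either library of line 3.

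Signs of small fold changes turned. For doxycycline Ube2c was 0.023 with library totals, 0.017 with limma-voom, 0.085 with offsets and 0.015 with the replicate block, E2f2 -0.027 with limma-voom and -0.053 with the block, and Pttg1 -0.025 with offsets. With a library or line left out, the ranges that crossed 0 were Wee1 -0.20 to 0.12, Ube2c -0.20 to 0.13, Pttg1 -0.075 to 0.30, E2f2 -0.35 to 0.35, E2f8 -0.15 to 0.52, Bub1b -0.11 to 0.29, Kif23 -0.16 to 0.29, Top2a -0.095 to 0.34, E2f1 -0.030 to 0.13, Ccna2 -0.043 to 0.51, Foxm1 -0.016 to 0.59, Tpx2 -0.026 to 0.34, Incenp -0.096 to 0.34, Cenpe -0.0015 to 0.58, Cenpf -0.045 to 0.34, Kif11 -0.20 to 0.41, Kif20a -0.11 to 0.44, Kif2c -0.091 to 0.21, Kif4 -0.033 to 0.43, Prc1 -0.14 to 0.32, Plk1 -0.13 to 0.40 and Cdca8 -0.0055 to 0.36, and for line 3 Ccne2 -0.70 to 0.16.

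With the line as a replicate block, 103 genes were called higher and 140 lower with doxycycline, 0 of the 49 among them, and the median of the 49 was 0.19; the block changed no call of these genes. Each line has 1 library per condition, so the spread between cultures of a line was not measured, and depth set the floor at 0.110 to 0.123 CPM, below every value of the 49 genes.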

Other observations

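In Cdkn1a, the p21 inhibitor of cyclin-dependent kinases, chosen after its values were seen, the levels were 41.7, 14.2 and 16.5 CPM in lines 3, 4 and 5 with doxycycline, against 46.8, 54.5 and 39.9 CPM without it. Treated line 3 was near the untreated libraries, and treated lines 4 and 5 were the lowest 2 libraries. The difference of the effects was 1.45 on the log2 scale (SE 0.30, edgeR adjusted p = 0.169), which did not pass. Averaged over both conditions line 3 was higher than lines 4 and 5 by 0.76 (SE 0.30, edgeR adjusted p = 0.596). Without doxycycline line 3 lay between lines 4 and 5.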
